A study of Mus musculus with 2 samples.

Results

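The Ets family transcription factors described here are 10 genes, Ehf, Elf3, Elf5, Spdef, Etv4, Etv5, Erg, Fli1, Ets1 and Ets2, taken by symbol from the 27998 genes of the deposited matrices. All 10 symbols occurred once each, and all had UMIs (unique molecular identifiers, each standing for 1 captured transcript molecule) in both libraries. The study profiled single cells of mouse lungs at postnatal day 10, after FACS purification of the epithelial, immune, endothelial and mesenchymal compartments, with droplet sequencing of transcript 3' ends. One library was labelled control (genotype control, Nkx2-1 in its title) and the other mutant (genotype mutant, Nkx2-1 and Aqp5 in its title), and the series concerns the control of alveolar type 1 (AT1) cells by Nkx2-1, a lung epithelial transcription factor. The labels give neither the alleles and the driver of any recombinase nor the number of animals in a library. With 1 library per group there was no spread between animals and no test, so every value describes these 2 libraries, and all intervals are 95% and cover counting error only.

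The control library held 4461 barcodes with a median of 5943 UMIs, and the mutant 4551 barcodes with a median of 8305. The libraries shared 27 barcode sequences. After filters, 3992 control and 4207 mutant cells were compared, divided by marker genes into 4 lineages, each with all 6 of its lineage markers detected in both libraries. Levels are CPM, UMIs of a gene scaled to a common total after summing over the cells of a group, and are not divided by gene length. The AT1 compartment means all epithelial cells outside the AT2-like (alveolar type 2), club-like and ciliated-like clusters. It numbered 586 cells in the control (median 6530.5 UMIs) and 2235 in the mutant (median 12292 UMIs). It is a remainder and not 1 type: 506 control cells lay in AT1-like cluster epithelial 4 and 78 in AT1-like cluster epithelial 9, whereas 570 mutant cells were AT1-like and the others formed clusters without a type name, 1 of them led by Calca and Resp18 of the neuroendocrine list. Nkx2-1 itself stood at 485 CPM in the control compartment and 14.1 CPM in the mutant one, and at 348 and 298 CPM in AT2-like cells. The 10 AT1 markers, all detected, summed to 35007 CPM (control) against 3109 CPM (mutant) in the compartment.

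Ets proteins share a winged helix-turn-helix DNA-binding domain that contacts a GGA core, and members can occupy similar sites. Ehf, Elf3, Elf5 and Spdef are epithelial members, with Spdef known for goblet cell differentiation, and Etv4 and Etv5 (the PEA3 group) act downstream of fibroblast growth factor and ERK signalling, with Etv5 known for maintaining AT2 cells. Erg and Fli1 are endothelial and blood lineage factors, Ets1 is prominent in lymphoid and endothelial cells, and Ets2 is broadly expressed and responds to Ras and MAP kinase signalling.

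Promoter sequences, the 250 bases before the annotated start in the RefSeq table of GRCm38.p6 (the start farthest upstream where a gene has several), were matched by symbol for 6 members, Elf3, Elf5, Spdef, Etv5, Erg and Ets2. Those of Ehf, Etv4, Fli1 and Ets1 were not analysed here. The 4 shown belong to epithelial and AT2 members that the results below turn on. Both strands were searched for the Ets site CCGGAAG and for the Nkx2-1 words CTCAAG and CAAGTG (the latter 2 share CAAG), and matches are in capitals. Each is written 5′ to 3′ along its gene: Elf3 on the minus strand at chr1:135258473-135258722, Spdef on the minus strand at chr17:27728952-27729201, Elf5 on the plus strand at chr2:103411848-103412097 and Etv5 on the minus strand at chr16:22439571-22439820.
Elf3: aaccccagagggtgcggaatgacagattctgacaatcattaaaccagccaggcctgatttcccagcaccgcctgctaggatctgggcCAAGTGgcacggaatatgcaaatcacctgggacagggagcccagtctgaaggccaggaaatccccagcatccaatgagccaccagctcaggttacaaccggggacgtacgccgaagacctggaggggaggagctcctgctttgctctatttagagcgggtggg
Spdef: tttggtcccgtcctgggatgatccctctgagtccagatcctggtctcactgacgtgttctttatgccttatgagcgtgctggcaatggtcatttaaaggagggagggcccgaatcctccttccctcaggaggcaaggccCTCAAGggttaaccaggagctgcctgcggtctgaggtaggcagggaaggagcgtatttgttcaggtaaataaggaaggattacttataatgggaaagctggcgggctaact
Elf5: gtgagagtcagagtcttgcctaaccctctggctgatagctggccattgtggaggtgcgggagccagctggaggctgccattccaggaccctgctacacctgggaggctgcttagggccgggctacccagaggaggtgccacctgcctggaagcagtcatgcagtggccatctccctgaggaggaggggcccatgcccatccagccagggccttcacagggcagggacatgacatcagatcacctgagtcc
Etv5: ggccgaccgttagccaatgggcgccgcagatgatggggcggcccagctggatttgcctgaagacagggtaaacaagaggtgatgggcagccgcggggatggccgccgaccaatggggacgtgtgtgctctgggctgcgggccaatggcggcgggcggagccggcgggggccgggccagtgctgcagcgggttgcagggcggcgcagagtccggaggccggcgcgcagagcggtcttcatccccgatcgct
The Elf3 window held CAAGTG with its first base at position -163 from the start, and the Spdef window CTCAAG at -111, both on the gene's strand. The windows of Elf5, Etv5, Erg and Ets2 held none of the searched words, and none of the 6 windows held CCGGAAG. The windows follow RefSeq starts. By the GENCODE gene limits given below, those of Elf5 and Ets2 lie wholly inside the gene. Those of Elf3, Etv5 and Spdef lie partly inside it, Spdef by a few bases. Of 32851 promoter windows of this length, 13.3% held CTCAAG, 11.6% CAAGTG and 6.91% CCGGAAG, and a match is a description of the letters only.

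Several members are neighbours in the genome (mm10, GENCODE vM21). Ehf (chr2:103263433-103303278) lies 108 kb from Elf5 (chr2:103411688-103450989), Fli1 (chr9:32422204-32542861) 93.4 kb from Ets1 (chr9:32636221-32757820), and Erg (chr16:95359169-95586593) 115 kb from Ets2 (chr16:95702075-95721051), each pair with 0 protein-coding genes between them. The others are Elf3 (chr1:135253575-135258568), Spdef (chr17:27714352-27728955), Etv4 (chr11:101769742-101785371) and Etv5 (chr16:22381309-22439719). Antisense genes overlap Elf3, Fli1 and Ets1 and held 1, 0 and 0 UMIs, respectively.

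Most members had a home lineage. Among control UMIs, the epithelium held 97.3% (93.2 to 99.3) of 148 for Ehf, 98.8% (97.3 to 99.6) of 432 for Elf3 and 99.004% (98.2 to 99.5) of 1004 for Elf5, with exact Clopper-Pearson intervals. All 28 Spdef UMIs and 94.4% (93.5 to 95.2) of the 2877 Etv5 UMIs were epithelial too. Etv4, by contrast, lay in the mesenchyme, with 98.2% (95.4 to 99.5) of 221 UMIs. Endothelial cells held 76.99% (72.2 to 81.3) of Erg, 58.4% (54.3 to 62.5) of Fli1 and 49.6% (47.1 to 52.1) of Ets1 UMIs in the control. The mesenchyme held 21.3% of Erg, 12.98% of Fli1 and 22.8% of Ets1, and immune cells held 27.5% of Fli1 and 20.7% of Ets1. Ets2 was spread, with 43.3% (40.7 to 45.96) epithelial, 27.2% (24.9 to 29.6) mesenchymal and 25.7% (23.4 to 28.05) endothelial. These shares depend on how many cells of each lineage a library holds. In the mutant, the mesenchyme held 73.9% (66.8 to 80.1) of Etv4, and the epithelium 19.4% (13.9 to 25.99) of Etv4, 78.7% (75.1 to 81.996) of Etv5 and 72.1% (70.4 to 73.7) of Ets2.

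**Figure D1:**
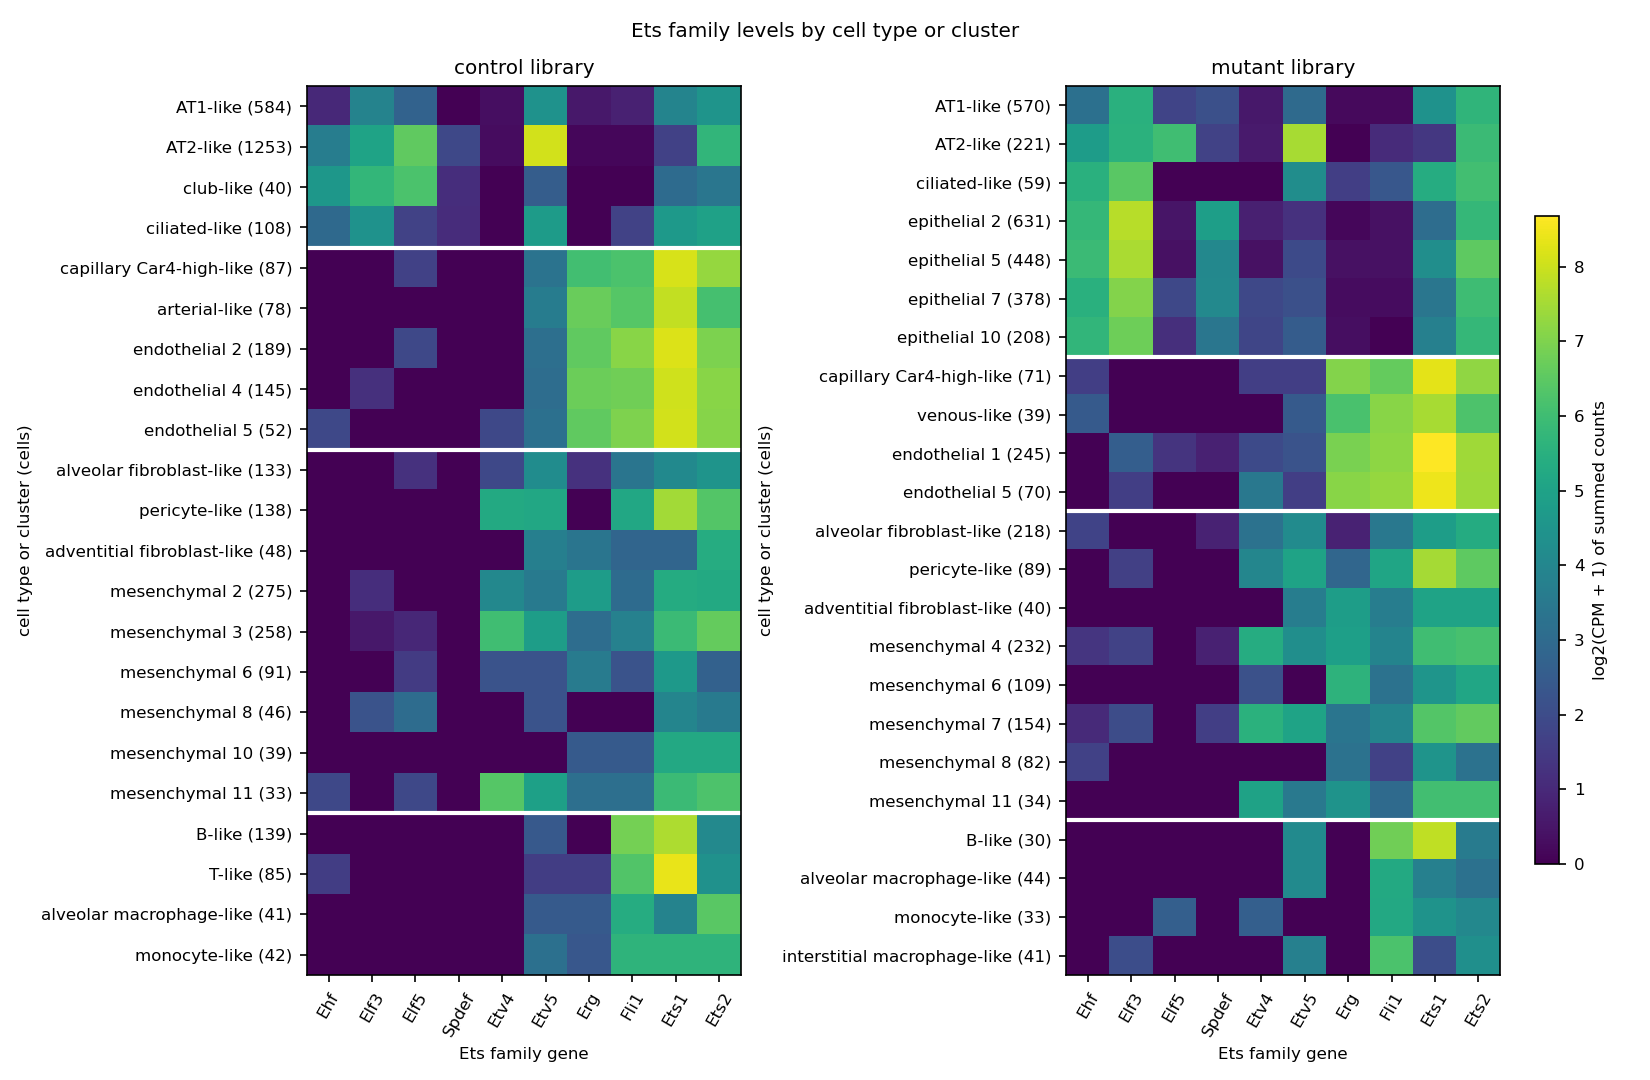
Levels of the 10 genes in log2(CPM + 1) of summed counts (colour) for each cell type or cluster with at least 30 cells (rows, cell number in brackets) in the control (left) and mutant (right) library, with white lines between epithelial, endothelial, mesenchymal and immune groups. Etv5 reaches 271 CPM in control AT2-like cells, and Elf3 reaches 212 and 191 CPM in mutant epithelial clusters 2 and 5. Erg, Fli1 and Ets1 are bright over the endothelial rows, with Ets1 also at 339 CPM in control T-like cells and Fli1 at 115 CPM in control B-like cells.

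The epithelial members differed in where they stood within the control epithelium. Ehf had 23.04 CPM (13.9 to 35.98) in 40 club-like cells, 11.96 CPM (9.87 to 14.4) in AT2-like and 6.76 CPM (2.48 to 14.7) in ciliated-like cells, with exact Poisson intervals. These intervals all overlapped one another. Elf3 had the same order, with 53.4 CPM (38.8 to 71.6), 32.1 CPM (28.6 to 35.9) and 20.3 CPM (12.02 to 32.1), followed by 13.7 CPM (10.4 to 17.8) in AT1-like cells. The Elf3 interval of ciliated-like cells overlapped those of AT2-like and AT1-like cells. Elf5 belonged to AT2-like and club-like cells, at 94.4 CPM (88.4 to 101) and 73.97 CPM (56.6 to 95.02), against 2.25 CPM (0.273 to 8.14) in ciliated-like cells. Spdef was rare, at 2.703 CPM (1.77 to 3.96) in AT2-like cells. None of the 586 control compartment cells had a Spdef UMI, which by 3 counts of that total limits cells with a UMI, not cells expressing the gene, to 0.512%. Etv5 marked AT2-like cells, at 271 CPM (261 to 282). Among the named types and unnamed clusters, the next control group was pericyte-like cells, at 36.1 CPM (22.1 to 55.8). AT1-like cells had 20.4 CPM as a type, but 105 CPM in the 78 control cells of their cluster epithelial 9.

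Ehf, Elf3, Spdef and Ets2 were higher in the mutant AT1 compartment. Elf5 and Etv5 were lower, which did not hold without 1 AT1-like cluster whose control cells held AT2 RNA (log2 ratios of 0.85 for Elf5 and -0.54 for Etv5 without it). With at least 20 UMIs over both libraries as the minimum, 8 of the 10 members were measured there, of which 5 were at least 2-fold higher and 2 at least 2-fold lower. Of all 12790 genes measured in the compartment, 21.6% were at least 2-fold higher and 12.1% at least 2-fold lower. Ehf, Spdef and Etv4, with 4, 0 and 1 control UMIs, passed the minimum through the mutant alone. At such counts a lower call was not open to them, and Etv4 had to be called higher. The median log2 ratio over all genes was 0.17. Erg (2 and 6 UMIs) and Fli1 (3 and 7 UMIs) were too rare to measure. Ratios, also where given in parentheses after a pair of levels, are mutant over control with an exact conditional binomial interval, and a pair of levels gives the control first.

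Ehf, an epithelial factor, had 4 control and 1380 mutant UMIs in the compartment, or 0.9801 CPM (control) against 44.4 CPM (mutant), a ratio of 45.3 (17.7 to 167). Elf3, which like Ehf acts in epithelial differentiation, stood at 13.7 CPM (control) against 149 CPM (mutant), a ratio of 10.9 (8.35 to 14.4). Spdef, the goblet cell factor, had 0 control UMIs against 515 mutant UMIs (16.6 CPM), at least 22.6-fold higher with the control set at a floor of 3 counts over the group. Ehf and Spdef were thus near or at 0 in the control, whereas Elf3 was present in both libraries. The broadly expressed Ets2 stood at 21.3 CPM (control) against 62.1 CPM (mutant), a ratio of 2.91 (2.35 to 3.65). Etv4 passed the 2-fold limit on 1 control and 34 mutant UMIs, with a ratio of 4.47 (0.749 to 182), an interval that spans equality. Ets1 stood at 13.97 CPM (control) against 13.3 CPM (mutant), a ratio of 0.954 (0.722 to 1.28) that also spans equality.

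**Figure D2:**
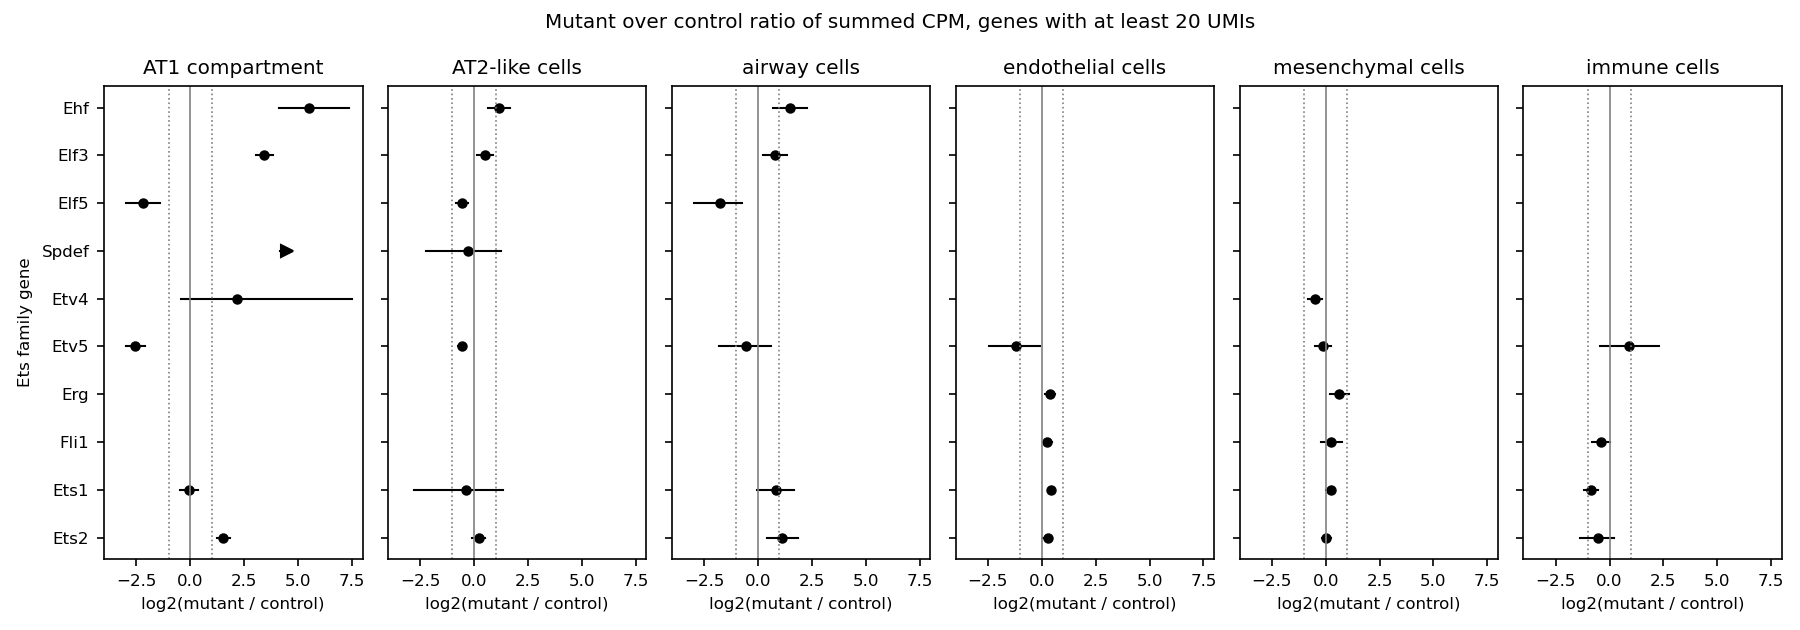
Mutant over control log2 ratio of summed CPM (x axis) for members (rows) with at least 20 UMIs in 6 cell classes (panels), with points for ratios, lines for 95% counting intervals, a triangle for a lower bound and dotted lines at 2-fold. In the AT1 compartment Ehf, Elf3, Spdef, Etv4 and Ets2 lie right of the upper 2-fold line and Elf5 and Etv5 left of the lower one, while endothelial Erg, Fli1, Ets1 and Ets2 lie between 0.25 and 0.42.

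The same genes were compared as shares of cells with a UMI. Since mutant compartment cells were deeper, each cell was thinned to 1500 UMIs, which left out 0 cells. Elf3 was then detected in 2.39% (1.31 to 3.98) of the control and 17.2% (15.6 to 18.8) of the mutant compartment, against 8.87% and 63.8% before thinning. Endothelial cells, which should lack Elf3, had a UMI in 0% and 0.613% (0.127 to 1.78) of cells after thinning, at median depths of 4408.5 and 5304 UMIs. Ehf was detected in 0% and 5.86% (4.92 to 6.92), against 0.512% and 37.2% before thinning, and in 0% and 0% of endothelial cells. The 0 of 586 control cells after thinning bounds detection at that depth only, and 3 of 586 cells had an Ehf UMI before it. Spdef was detected in 0% and 2.01% (1.47 to 2.68), and Ets2 in 2.05% (1.06 to 3.55) and 9.22% (8.05 to 10.5). The mutant shares of Ehf, Elf3, Spdef and Ets2 thus lay above the control shares at equal depth.

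**Figure D3:**
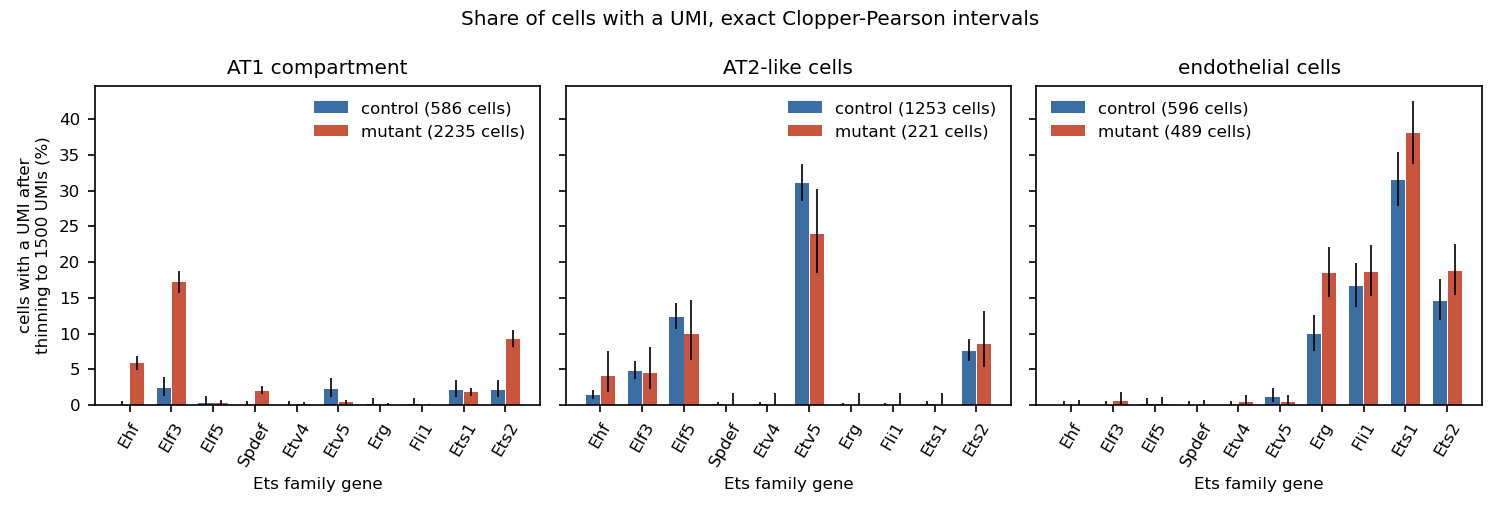
Percent of cells with a UMI after thinning to 1500 UMIs (y axis) for each member (x axis) in 3 cell classes, control in blue and mutant in red, with 95% Clopper-Pearson intervals. Elf3 reaches 17.2% and Ehf 5.86% in the mutant AT1 compartment, Etv5 stands at 31.1% and 23.98% in AT2-like cells, and Ets1 at 31.5% and 38.04% in endothelial cells.

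The mutant clusters of the compartment were not alike. Elf3 was highest in epithelial cluster 2, led by Agr2, Spink4, Tff2 and Tff1, at 212 CPM (203 to 221). It was followed by cluster 5, led by Sprr1a, at 191 CPM (180.03 to 202), cluster 7, led by Calca, at 132 CPM (121 to 143), and the cycling cluster 10, at 107 CPM (96.9 to 117). The mutant AT1-like cluster 6 had 51.7 CPM of Elf3 and the mutant cells of cluster 9 23.98 CPM. Clusters without a type name thus held more Elf3 than the AT1-like ones. Ehf lay between 44.8 and 59.4 CPM in clusters 2, 5, 7 and 10, against 10.3 CPM in cluster 6 and 1.94 CPM in cluster 9. Spdef was highest in cluster 2, at 28.3 CPM (25.1 to 31.8), and had 0 UMIs in cluster 9. Clusters 7 and 5 followed cluster 2, at 15.98 CPM (12.48 to 20.2) and 15.6 CPM (12.7 to 19.1). Their intervals overlapped each other but not that of cluster 2. Ets2 was highest in cluster 5, at 91.6 CPM (84.3 to 99.4). The gastric markers also differed between the libraries. They summed to 1.72 CPM in the control compartment, where Tff1, Tff2, Gkn1, Gkn2 and Cym were at 0, and to 1332 CPM in the mutant, where 6 of 6 were detected. These sums cover the whole compartment and not its clusters, and the part of the gastric markers in the members' levels was not tested.

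Nkx2-1 was measured in the same clusters. It had 2.38, 2.71, 3.83 and 4.21 CPM in clusters 2, 5, 7 and 10, 15.1 CPM in cluster 6 and 183 CPM in cluster 9. Within the compartment, the mutant cluster highest in Nkx2-1 thus had the lowest Ehf, Elf3 and Spdef, as a description of 6 clusters of 1 library. This did not extend to AT2-like cluster 8, whose mutant cells had 291 CPM of Nkx2-1 with 25.5 CPM of Ehf and 48.99 CPM of Elf3. In cluster 9, the compartment cluster with over 50 cells of both libraries, Elf3 stood at 16.7 CPM (control) against 23.98 CPM (mutant), a ratio of 1.43 (0.716 to 3.12), and Ehf had 4 and 3 UMIs. Ets2 there stood at 39.5 CPM (control) against 34.996 CPM (mutant), a ratio of 0.885 (0.545 to 1.47). Neither Elf3 nor Ets2 thus differed beyond counting error in cluster 9, but its cells were not alike in AT2 RNA. Its AT2 markers summed to 109443 CPM (control) against 28795 CPM (mutant). Control AT2-like cells had 32.1 CPM of Elf3 and 51.2 CPM of Ets2. Control compartment cells outside cluster 9 had 13.1 CPM of Elf3 and 17.8 CPM of Ets2. The part of AT2 RNA in the cluster 9 ratios of Elf3 and Ets2 was not tested. In the AT1-like clusters alone (584 control and 570 mutant cells), which hold different clusters in each library, the ratio was 3.24 (2.42 to 4.401) for Elf3, 8.35 (3.07 to 31.8) for Ehf on 4 control UMIs and 2.33 (1.83 to 2.99) for Ets2. Spdef was at least 4.59-fold higher there. The Elf3 ratio of 3.24 is below the 10.9 of the whole compartment, and the difference was not tested.

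**Figure D4:**
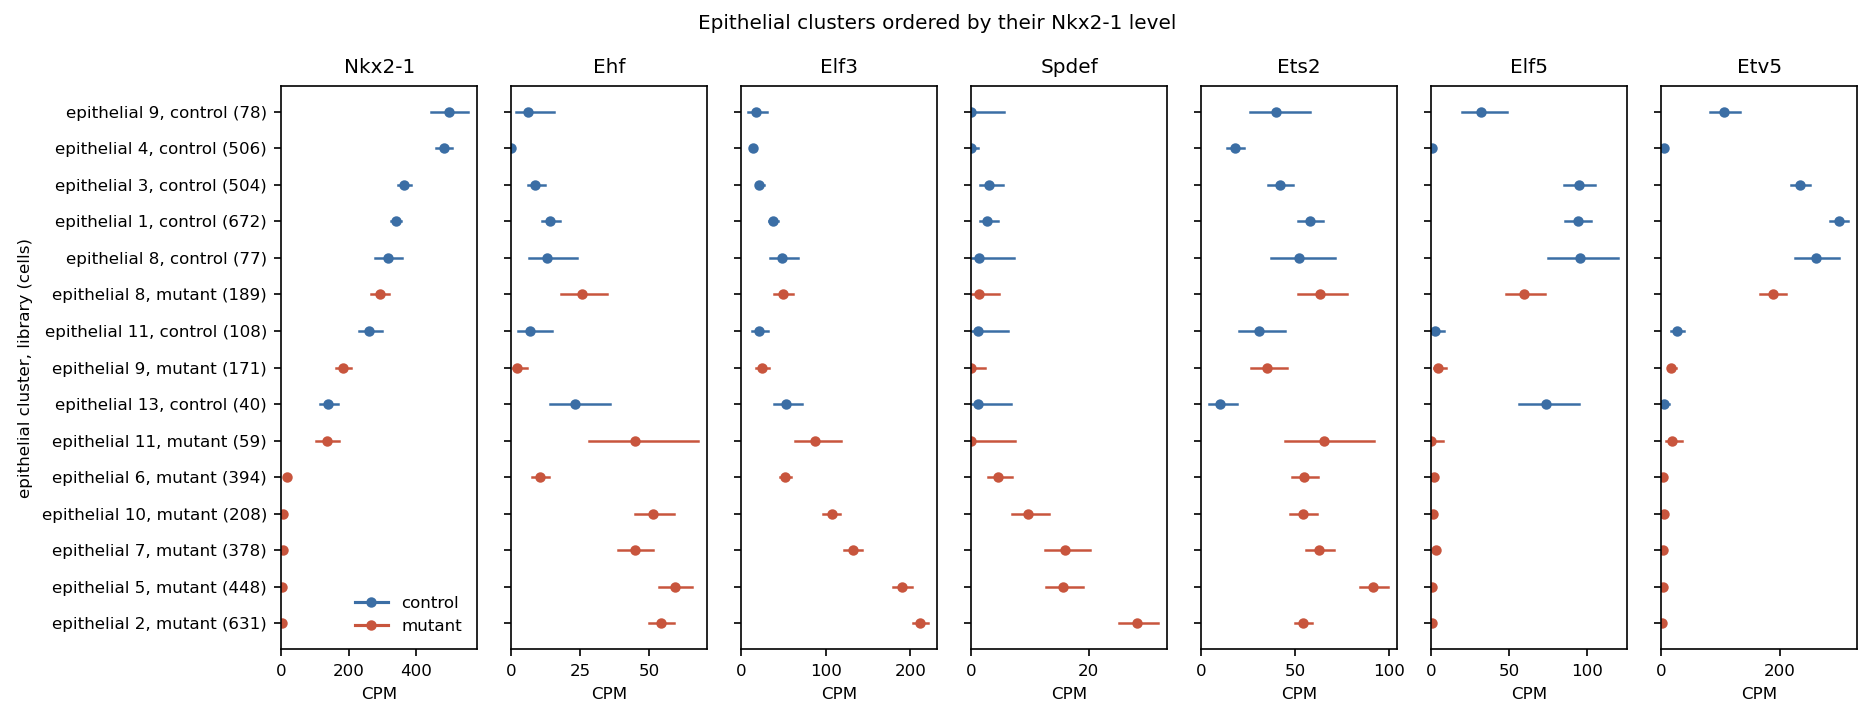
CPM (x axes, each from 0) of Nkx2-1 and 6 Ets genes in each epithelial cluster and library with at least 30 cells (rows, ordered by Nkx2-1), control in blue and mutant in red, with exact Poisson intervals. The rows of lowest Nkx2-1 are mutant clusters 2, 5, 7, 10 and 6, where Elf3 runs from 51.7 to 212 CPM, and Etv5 and Elf5 stand out in the AT2-like clusters 1, 3 and 8.

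The lower Etv5 and Elf5 of the mutant compartment rested on 1 control cluster. Over the compartment, Etv5 stood at 20.3 CPM (control) against 3.51 CPM (mutant) (5.796-fold lower, 4.303 to 7.78) and Elf5 at 5.64 CPM (control) against 1.22 CPM (mutant) (4.61-fold lower, 2.62 to 7.93). Of the 83 control Etv5 UMIs, 69 came from the 78 cells of cluster 9, as did 21 of the 23 control Elf5 UMIs. There Etv5 had 105 CPM and Elf5 31.9 CPM. The mutant cells of cluster 9 had 16.9 CPM of Etv5 (6.23-fold lower, 3.91 to 10.2) and 4.54 CPM of Elf5 (7.04-fold lower, 2.88 to 19.6). The control cells also held AT2 RNA: the 10 AT2 markers, all detected, summed to 109443 CPM there, against 28795 CPM in the mutant cells of cluster 9, 5012 CPM in control cluster 4 and 287928 CPM in control AT2-like cells. Without cluster 9, an alternative chosen after seeing the data, Etv5 stood at 4.09 CPM (control) against 2.81 CPM (mutant), a ratio of 0.687 (0.388 to 1.31), and Elf5 had 2 control and 31 mutant UMIs, a ratio of 1.797 (0.457 to 15.5). That control Etv5 level was below those of control endothelial (7.86 CPM) and immune (5.42 CPM) cells. The part of the AT2 RNA in these ratios, beyond leaving out that cluster, was not tested.

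In AT2-like cells Etv5 and Elf5 were lower and Ehf was higher in the mutant, mostly by less than 2-fold. Of the 7 measured members 1, Ehf, was at least 2-fold higher and 0 were at least 2-fold lower, against 8.53% and 4.27% of 10597 genes, with a median log2 ratio of -0.27 over the members and 0.22 over all genes. Etv5, the AT2 maintenance factor, stood at 271 CPM (control) against 184 CPM (mutant), a ratio of 0.6798 (0.604 to 0.763). Elf5, a factor of secretory epithelia, stood at 94.4 CPM (control) against 64.4 CPM (mutant), a ratio of 0.682 (0.557 to 0.829). Ehf stood at 11.96 CPM (control) against 26.9 CPM (mutant), a ratio of 2.25 (1.57 to 3.17), and Elf3 at 32.1 CPM (control) against 45.9 CPM (mutant), a ratio of 1.43 (1.11 to 1.83). With median-of-ratios scaling the log2 ratio of Ehf was 0.89, below 2-fold, and after thinning that of Elf3 was -0.08, the opposite direction. Different clusters held most AT2-like cells, clusters 1 and 3 in the control (53.6% and 40.2%) and cluster 8 in the mutant (85.5%). Within cluster 8 the ratio was 0.719 (0.598 to 0.865) for Etv5, 0.624 (0.454 to 0.862) for Elf5 and 1.95 (0.958 to 4.39) for Ehf. Of 6 gastric markers, 3 were detected in control and 4 in mutant AT2-like cells, summing to 3.22 and 30.8 CPM with Gkn1 at 0 in both, and their part in the Ehf level was not tested.

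Airway cells had more Ehf and Ets2 and less Elf5 in the mutant. Over club-like and ciliated-like cells together, 6 members were measured, 2 at least 2-fold higher and 1 at least 2-fold lower, against 12.6% and 4.84% of 8819 genes. Ets2 stood at 20.4 CPM (control) against 44.8 CPM (mutant), a ratio of 2.19 (1.34 to 3.58), and Elf5 at 36.8 CPM (control) against 10.9 CPM (mutant) (3.38-fold lower, 1.67 to 7.73) on 63 and 9 UMIs. Club-like cells, where Elf5 was high, numbered 40 in the control and 23 in the mutant. In ciliated-like cells (108 control and 59 mutant), Ehf stood at 6.76 CPM (control) against 44.8 CPM (mutant), a ratio of 6.62 (2.602 to 19.95), and Elf3 at 20.3 CPM (control) against 87.5 CPM (mutant), a ratio of 4.31 (2.43 to 7.94). Gastric markers moved there too: 2 of 6 were detected in the control, summing to 7.89 CPM, and 4 of 6 in the mutant, summing to 696 CPM, with Gkn1 and Gkn2 at 0 in both. Their part in the Ehf and Elf3 levels was not tested.

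Erg, Fli1, Ets1 and Ets2 were each higher in mutant endothelial cells, by less than 2-fold. Of the 5 measured members 0 were at least 2-fold higher and 1, Etv5, was at least 2-fold lower, against 7.02% and 2.39% of 10454 genes. Ets1, an endothelial and lymphoid factor, stood at 262 CPM (control) against 349.9 CPM (mutant), a ratio of 1.34 (1.22 to 1.47). Erg, which maintains endothelial identity, stood at 92.6 CPM (control) against 120.3 CPM (mutant), a ratio of 1.299 (1.11 to 1.53). Fli1, its close relative, stood at 114 CPM (control) against 136 CPM (mutant), a ratio of 1.19 (1.03 to 1.38), and Ets2 at 124 CPM (control) against 150.2 CPM (mutant), a ratio of 1.21 (1.05 to 1.39). The median log2 ratio was 0.27 over the members and 0.08 over all genes. Different clusters held most cells, endothelial 2 and 4 in the control (31.7% and 24.3%) and endothelial 1 in the mutant (50.1%). Endothelial 2 held 189 control and 14 mutant cells. Its top genes included the lymphatic markers Ccl21a, Mmrn1 and Prox1 and the AT2 markers Sftpc, Sftpa1, Cxcl15 and Lyz2. Only 2 lymphatic markers reached 10% of its cells, below the 3 needed for that name. Endothelial 1 was led by Hbb-bs and Hba-a1 and had Cd52 and Il1b among its top genes. The 6 immune markers, all detected, summed to 6.49 CPM in control and 69.99 CPM in mutant endothelial cells, and their part in these ratios was not tested. The lower Etv5 rested on 23 control and 10 mutant UMIs. The 10 AT2 markers summed to 3258 CPM in control and 298 CPM in mutant endothelial cells, with Lamp3 at 0 in the mutant, and their part in the Etv5 level was not tested.

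Endothelial groups with cells of both libraries were also compared. In Car4-high capillary-like cells (87 control and 71 mutant), Erg stood at 64.6 CPM (control) against 134 CPM (mutant), a ratio of 2.07 (1.32 to 3.33). Ets1 had 285 and 319 CPM there (1.12, 0.879 to 1.42) and Ets2 158 and 150.2 CPM (0.949, 0.675 to 1.34), so the intervals of both spanned equality. In the cycling cluster endothelial 5 (52 and 70 cells), Erg had 92.7 and 140.02 CPM (1.51, 0.988 to 2.35) and Ets1 273 and 353 CPM (1.29, 1.01 to 1.67). Whether Erg differed more in 1 group than in another was not tested. The lowest Ets2 levels among the endothelial groups of at least 30 cells were 68.96 CPM in control arterial-like and 75.98 CPM in mutant venous-like cells.

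**Figure D5:**
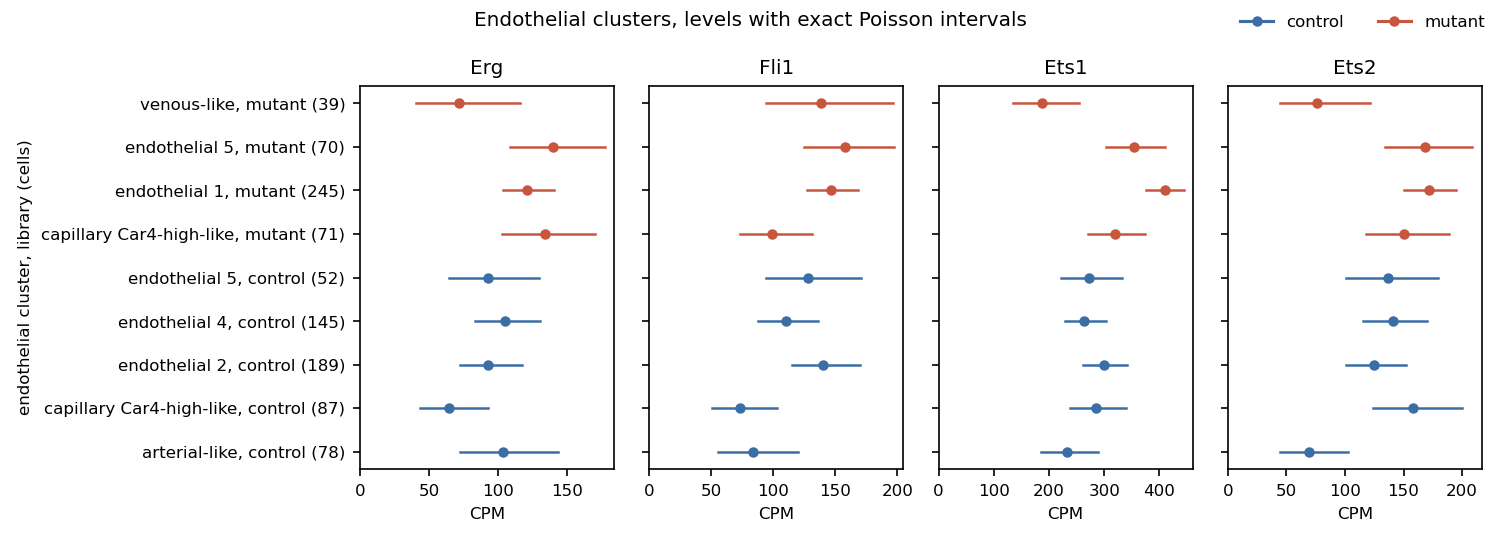
CPM (x axes, each from 0) of Erg, Fli1, Ets1 and Ets2 in endothelial types and clusters with at least 30 cells (rows), control in blue and mutant in red, with exact Poisson intervals. Ets1 is highest in mutant cluster 1 (409 CPM), and Erg in Car4-high capillary-like cells has 64.6 CPM (control) and 134 CPM (mutant).

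In the mesenchyme Etv4 was lower in the mutant, by less than 2-fold. Of 6 measured members 0 were at least 2-fold higher or lower, against 6.79% and 2.56% of 12086 genes. Etv4, a target of fibroblast growth factor signalling, stood at 31.2 CPM (control) against 22.3 CPM (mutant), a ratio of 0.715 (0.572 to 0.891), and Etv5 at 18.3 CPM (control) against 16.8 CPM (mutant), a ratio of 0.918 (0.699 to 1.203). The highest control levels of Etv4 were in the cycling cluster mesenchymal 11, at 83.7 CPM (56.9 to 119), in mesenchymal 3, at 63.8 CPM (53.4 to 75.6), and in pericyte-like cells, at 37.95 CPM (23.5 to 58.01), and these intervals overlapped one another. Different clusters held much of the mesenchyme: mesenchymal 2 (275 control and 1 mutant cells) and 3 (258 and 6) in the control, and mesenchymal 4 (2 and 232) and 7 (1 and 154) in the mutant. Etv4 had 15.7 CPM in control mesenchymal 2, and 40.5 and 45.3 CPM in mutant mesenchymal 4 and 7. Within pericyte-like cells Etv4 stood at 37.95 CPM (control) against 14.7 CPM (mutant) (2.58-fold lower, 1.06 to 7.18), and Ets1 at 179 CPM (control) against 181 CPM (mutant). Erg was also found in several mesenchymal clusters, at 26.6 CPM (19.3 to 35.7) in control mesenchymal 2 and 28.5 CPM (20.2 to 39.2) in mutant mesenchymal 4. In mesenchymal 6, led by Scx and Enpp2 and present in both libraries, it stood at 11.1 CPM (control) against 47.97 CPM (mutant), a ratio of 4.32 (1.76 to 12.8). The 6 endothelial markers summed to 68.5 CPM (control) and 61.7 CPM (mutant) in mesenchymal 6, with Tie1 at 0 in the control.

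In immune cells Ets1 was lower in the mutant, by less than 2-fold. Of 4 measured members 0 passed 2-fold, against 7.85% higher and 6.14% lower of 8479 genes. Ets1 stood at 174 CPM (control) against 96.2 CPM (mutant), a ratio of 0.554 (0.4396 to 0.694). Its level differed between immune types, with 339 CPM (289.7 to 394) in control T-like cells and 13.6 CPM in control alveolar macrophage-like cells. T-like cells were 25.99% of control and 12.4% of mutant immune cells, and the B-like clusters immune 1 and 6 were 28.7% and 13.8% of control and 15.98% and 1.775% of mutant ones. The 5 B markers, all detected, summed to 3724 and 1317 CPM, and the 4 T markers, all detected, to 726 and 295 CPM. The part of this makeup in the Ets1 ratio was not tested over the class. Within B-like cells Ets1 stood at 195 CPM (control) against 228 CPM (mutant), a ratio of 1.17 (0.805 to 1.67). Ets2 in alveolar macrophage-like cells had 19 UMIs in 41 control cells and 2 in 44 mutant cells, a ratio of 0.0979 (0.0111 to 0.406).

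Profiles over 45 groups of at least 30 cells were compared among 9711 genes by Pearson's r of log2(CPM + 10), as a description of groups that come from the same 2 libraries. Among the members, Ehf and Elf3 were most alike (r = 0.96), followed by Elf3 and Spdef (0.84), Ehf and Spdef (0.81) and Ets1 and Fli1 (0.81), whereas Elf5 and Etv5 had r = 0.57. The genes most like Ehf were Elf3, D630039A03Rik and Krt23 (r = 0.96, 0.95 and 0.94), and those most like Elf3 were Ehf, Mpzl2 and Klf5 (r = 0.96, 0.95 and 0.95). Spdef was most like Hnf4a and Foxa3 (r = 0.94 and 0.94), and Elf5 most like Spink5, Scgb1c1 and Chil1 (r = 0.93, 0.92 and 0.90). The epithelial members thus fell into Ehf, Elf3 and Spdef on one side and Elf5 on the other. Etv5 was most like Mlc1, Acoxl and Bpifb5 (r = 0.81, 0.80 and 0.80), and Etv4 most like Egfem1, Tmem178 and Rerg (r = 0.88, 0.87 and 0.83). Erg was most like Pcdh17, Tspan18 and Ace (r = 0.95, 0.94 and 0.92), and Fli1 most like Sipa1, Srgn and Il2rg (r = 0.94, 0.93 and 0.92). Ets1 was most like Prkd2, Gimap6 and Gimap9 (r = 0.88, 0.86 and 0.85), and Ets2 most like Midn, Ddah1 and Cdc42ep1 (r = 0.79, 0.78 and 0.78).

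Genes of the pathways around the members were counted from lists. Of 7 goblet genes linked to Spdef, 5 were measured in the AT1 compartment and 5 were at least 2-fold higher in the mutant, against 21.6% of all genes. Each had between 0 and 4 control UMIs and passed the minimum through the mutant alone. A lower call was thus not open to them, and the count is a description and not a test. Agr2, which folds mucins, had 0 control UMIs against a mutant level of 109.7 CPM, at least 149-fold higher. Foxa3, a forkhead factor of gut and liver, had 2 control UMIs and a mutant level of 26.1 CPM, a ratio of 53.3 (14.7 to 441). Of 9 ERK feedback genes, which ERK signalling induces and which restrain it, 7 were measured, 3 at least 2-fold higher and 2 at least 2-fold lower, against 21.6% and 12.1% of all genes, with a median log2 ratio of -0.34. Of the sprouty genes, Spry1 and Spry2 were lower, Spry1 with 146 and 71.1 CPM (0.488, 0.446 to 0.536) and Spry2 with 53.9 and 20.6 CPM (0.383, 0.328 to 0.448). Dusp4, a MAP kinase phosphatase, had a ratio of 5.78 (1.55 to 48.5) on 2 control UMIs, and Spred2 one of 3.53 (2.08 to 6.52).

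In endothelial cells all 10 genes linked to Erg and Fli1 were measured and 0 passed 2-fold, against 7.02% higher and 2.39% lower of all genes. Of their ratios 5 were above 1 and 5 below it, with a median log2 ratio of -0.04. Cldn5, a tight junction gene, had 4277 and 3191 CPM (0.746, 0.726 to 0.766), and Egfl7, a secreted endothelial factor, 2102 and 2586 CPM (1.23, 1.19 to 1.27). Flt1, a receptor for vascular endothelial growth factors, had 258 and 426 CPM (1.65, 1.505 to 1.81), and Eng, a co-receptor for transforming growth factor beta, 472 and 323 CPM (0.684, 0.629 to 0.744). The list thus had no common direction. Of the ERK feedback genes 7 were measured there, 1 at least 2-fold higher and 0 lower, against 7.02% and 2.39% of all genes. Spry4 had 22.2 and 67.3 CPM (3.03, 2.28 to 4.07) and Dusp6, an ERK phosphatase, 204 and 400.2 CPM (1.96, 1.78 to 2.17).

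Among 16 other Ets genes, 10 were measured in the AT1 compartment, 2 at least 2-fold higher and 0 lower, against 21.6% and 12.1% of all genes, so the share higher was near that of all genes. The median log2 ratio was 0.45 against 0.17 over all genes. The higher ones were Elk3, with 6.37 and 20.6 CPM (3.24, 2.19 to 4.997), and Etv6, a repressor of the family, with 4.9004 and 13.8 CPM (2.82, 1.802 to 4.66). The other Ets genes with the highest summed CPM were Elf1 over all epithelial cells (46.003 and 104 CPM), Elk3 in endothelial cells (303 and 321 CPM), Etv1 in mesenchymal cells (117 and 108 CPM) and Spi1, a myeloid and B cell factor, in immune cells (240.3 and 293 CPM).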

How the data were processed

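The deposited values were raw UMI counts per gene and barcode, made by the authors, with Cell Ranger, Seurat and mm10 named in the submitters' processing notes and versions, annotation release and filters not given in the sources used here. Each UMI is a molecule tagged near its 3' end, so CPM here is not divided by length. Kept barcodes had 500 or more genes and less than 10% of counts from mitochondria, leaving 4141 control and 4418 mutant cells. Doublets were scored per library among 2 simulated doublets per cell and split by Otsu's threshold, which marked 49 control (1.18%) and 88 mutant cells (1.99%), while 33.6% and 43.3% of simulated doublets scored above it, so doublets will have stayed in. Cells were clustered with 2000 variable genes leaving out genes of the Ets family, the cell cycle, mitochondria and ribosomes and a few sex-linked genes, 30 components, 20 neighbours and Leiden resolution 1 (scanpy 1.11.5, leidenalg 0.10.2), then again within lineages. A cluster was named from marker lists at a mean log2 fold of at least 1.5 with at least 3 markers in at least 10% of its cells, and unnamed epithelial clusters in a second pass at 1.0. Mixed clusters, with markers of several lineages, were not compared (100 control and 123 mutant cells).

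The doublet caller, its threshold, the second pass and the mixed rule were settled after several settings had been tried with the members' counts in view. 4 of those settings, and the removal of 1 cluster, were therefore run as alternatives beside the 14 planned ones. The members and gene lists were chosen with earlier results of these data known. All 10 members are named, other Ets genes by highest CPM per lineage or a 2-fold difference in the AT1 compartment, and of each list the 2 genes highest by CPM and the 2 with the largest folds. A gene was measured with at least 20 UMIs over both libraries. Ratios compare CPM of summed counts, with a floor of 3 counts where a library had 0. For likeness of profiles the 3 genes of highest r are named per member, of which 1 is not reported here. The interval code was checked on simulated data.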

Additional observations from a re-analysis of the deposited data

Results flagged for a closer look

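The Ets1 ratio of mutant over control differed between endothelial and immune cells. It was 1.34 in endothelial cells and 0.554 in immune cells, a difference of 1.27 on the log2 scale, with counting intervals on opposite sides of equality. With 1 library per group the difference was not tested. T-like cells, where Ets1 was highest in the control, were 25.99% of control and 12.4% of mutant immune cells, and the B-like clusters immune 1 and 6 were 28.7% and 13.8% of control and 15.98% and 1.775% of mutant immune cells. Their part in the difference was not tested.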

How the results depend on the processing

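In the AT1 compartment 5 members were at least 2-fold higher in the main analysis and 4 to 5 under all 19 alternatives, with log2 ratios of 2.22 to 6.45 for Ehf, 1.70 to 3.57 for Elf3 and 1.98 to 6.21 for Spdef, the lowest over all epithelial cells, in AT1-like clusters alone and after thinning, respectively. Ets2 (1.54) ran from 0.63 over all epithelial cells, below 2-fold, to 2.27 after thinning. Elf3 in AT2-like cells (0.52) was -0.08 after thinning. In the AT1 compartment the count at least 2-fold lower (2) was 4 with a minimum of 1 UMI. It was 1 with a minimum of 100 UMIs, with each library clustered alone, at resolution 0.5, after thinning and in cells without cycle UMIs. It was 0 with doublets called by Scrublet and without the AT1-like cluster that held AT2 RNA. Elf5 reversed without that cluster, to 0.85. Scrublet doublets gave -0.16 for Elf5 and -0.90 for Etv5, whereas doublets called on scaled values gave -3.02 and -3.37. In AT2-like cells the count higher (1) was 4 with a minimum of 1 UMI and 0 with median-of-ratios scaling, under 5% mitochondrial counts and in cells without cycle UMIs, and the count lower (0) was 1 under 5% mitochondrial counts, with Scrublet doublets and with doublets on scaled values. In endothelial cells the count higher (0) was 3 with a minimum of 1 UMI, and the count lower (1) was 2 with that minimum and 0 with doublets kept, with doublets on scaled values, at a minimum of 100 UMIs, at resolution 2, after thinning, under 5% mitochondrial counts and in cells without cycle UMIs. The causes were not tested. Of 327 log2 ratios under alternatives, 285 stayed within the main counting interval. These include the minimum of 1 UMI, the minimum of 100 UMIs and naming without the second pass, which left the log2 ratios unchanged. No paired analysis was possible because each group had 1 library. Fewer than 20 UMIs kept Erg and Fli1 from being measured in the compartment, and Etv4 had 1 control UMI there.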
